A study of Mus musculus with 28 samples.

Results

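Malat1, Neat1, Miat and Snhg11 are long transcripts studied as noncoding RNAs of the nucleus, although the annotation lists Snhg11 as protein coding. Their rows were taken from the deposited count tables by gene symbol, and all 4 of 4 were found among 41549 genes. The counts come from RNA of sorted nuclei of the motor cortex of 7 mice, numbered 17 to 23. Every animal carried both vectors: the left side had received AAV-Cas9-miR-124-empty and the right AAV-Cas9-miR-124-g4, so the vector and the hemisphere cannot be told apart. They are called empty and g4 here. Both are adeno-associated viruses that deliver the nuclease Cas9, which carried an HA tag. Nuclei were sorted into HA-positive ones, labelled as holding Cas9, and HA-negative ones. The groups are thus empty HA-negative, g4 HA-negative, empty HA-positive and g4 HA-positive, with 7 libraries each and 28 in all. No group came from tissue without a vector, and each group holds nuclei of 1 hemisphere per animal. The promoter that drives Cas9, the mouse strain, the age and the time after injection are not stated in the labels.

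Malat1 is one of the most abundant RNAs of mammalian nuclei. It gathers in nuclear speckles, the bodies that store splicing factors, and binds SR proteins, which help to choose splice sites. Neat1 is the scaffold of paraspeckles, bodies in which proteins such as Sfpq and Nono are held, and its short and long forms start at the same promoter. In brain, Neat1 is best known from glia. Miat, also called Gomafu, is a transcript of neurons that sits in its own nuclear spots and binds the splicing factor Sf1. Snhg11 is a host gene whose locus holds small nucleolar RNAs (snoRNAs), the guides for chemical modification of other RNAs, and it is a transcript of neurons. The study is about knockdown of a microRNA with Cas9, so g4 against empty in HA-positive nuclei asks about the treated nuclei. The same contrast in HA-negative nuclei is given beside it, but the fractions differed in cell markers, so it is not a matched background.

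Malat1 lies on mouse chromosome 19 (GRCm38, 5795690 to 5802672, minus strand) and is a single exon of 6983 bases in its longest GENCODE form. Neat1 lies 22035 bases away on the same strand (5824708 to 5845478), with a longest form of 20771 bases. Miat is on chromosome 5 (112213228 to 112229395, minus strand) and Snhg11 on chromosome 2 (158375638 to 158386145, plus strand). GENCODE and the count tables list Malat1, Neat1 and Miat as long intergenic noncoding RNAs, while Snhg11 is listed as protein coding in both. Annotated genes that overlap a member held few or no reads: Gm25129, a snoRNA inside Snhg11, had 40 counts over all libraries, and each of the other overlapping genes had 7 or fewer. Gm37376 and Gm26953 run opposite to Malat1 and Miat with 0 and 7 counts, and without a stated strand setting their reads could not be told from those of the members.

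The neighbours Malat1 and Neat1, the latter in its long form, end alike. This is shown here because Malat1 and the long form of Neat1 are kept stable by this end in place of an added poly(A) tail. The 110 bases below, read from the GENCODE transcripts on GRCm38, hold 3 shared words of 13, 16 and 11 bases, in capitals, in the same order. They include the U-rich motifs and the A-rich tract that fold into a triple helix. In Malat1 the segment is chr19:5795982-5796091 and the annotated transcript runs on past it, and in Neat1 it is the last part of the long form, chr19:5824708-5824817.
Malat1: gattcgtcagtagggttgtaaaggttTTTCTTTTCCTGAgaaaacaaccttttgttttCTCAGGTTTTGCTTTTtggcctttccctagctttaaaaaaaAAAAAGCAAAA
Neat1: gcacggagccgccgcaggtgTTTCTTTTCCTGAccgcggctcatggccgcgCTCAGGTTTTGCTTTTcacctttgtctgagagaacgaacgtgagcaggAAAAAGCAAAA

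Miat is known for repeats of the letters TACTAAC, the sequence of the branch point that Sf1 recognises. On the sense strand, which alone was searched, its longest form of 9163 bases held 6 matches, which do not overlap one another. Malat1 and Snhg11 held 0 and Neat1 held 1. Of 8967 annotated transcripts of 0.5 to 2 times Miat's length, this form of Miat included, 14.6% held at least 1 match and 0.0223% held 6 or more. The matches, in capitals, lie in 2 clusters at chr5:112217309-112217460 and chr5:112216752-112216812, both on the minus strand.
Miat first cluster: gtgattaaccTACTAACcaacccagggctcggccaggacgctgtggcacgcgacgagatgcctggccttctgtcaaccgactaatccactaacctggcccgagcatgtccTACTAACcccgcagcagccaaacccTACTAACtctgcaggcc
Miat second cluster: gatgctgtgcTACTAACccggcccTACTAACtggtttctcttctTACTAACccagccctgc

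Depth and the makeup of the nuclei bear on every value below. Libraries held 248612 to 902944 counts and 8687 to 13668 detected genes. Mean counts were 422849 in empty HA-positive and 571886 in empty HA-negative libraries, and 569800 and 576666 in those with g4. Mean detected genes were 10376, 12482, 11885 and 12479 in the same order. Ribosomal RNA genes held 17.0% to 40.4% of a library's counts. The 4 HA-positive libraries with under 10000 detected genes were empty 17, 21 and 22 and g4 18. Markers of inhibitory neurons summed to 1373 to 3529 CPM in HA-positive and 548 to 952 in HA-negative libraries, while oligodendrocyte markers summed to 52.0 to 1288 and 1043 to 2336. CPM is a gene's share of a library's counts on a per-million basis, with the total scaled by TMM factors. The g4 HA-positive library of animal 19 stood apart: it held 591 counts of Xist and 44 of Y-linked genes together, where each other library of that animal held 0 of Xist, and its oligodendrocyte sum of 1288 compares with at most 198 in the other g4 HA-positive libraries. The fold changes of members between groups that it enters are also given with it left out. Group means, medians, ranges and SDs include it.

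Called abundant as a group, the 4 RNAs were not all so. By mean count over all libraries Malat1 ranked 6th among all genes and Snhg11 74th, but Miat ranked 2016th and Neat1 3641st. Per kilobase of annotated exon, Malat1 had group means of 1157 to 1783 CPM, Snhg11 65.4 to 80.0, Miat 6.80 to 7.56 and Neat1 0.916 to 2.38. On that scale the order of the 4 RNAs was the same in every group. For Neat1 the length used was the 20771 bases of its long form, and reads of the short form were not told apart. Its place below Miat per kilobase thus depends on that length. The scale also assumes reads along whole transcripts, which was not tested. Neat1 rested on 2 to 54 counts per library and Miat on 9 to 114, so counting error is large for both, whereas Malat1 had at least 1610 counts and Snhg11 at least 127 in every library.

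**Figure D1:**
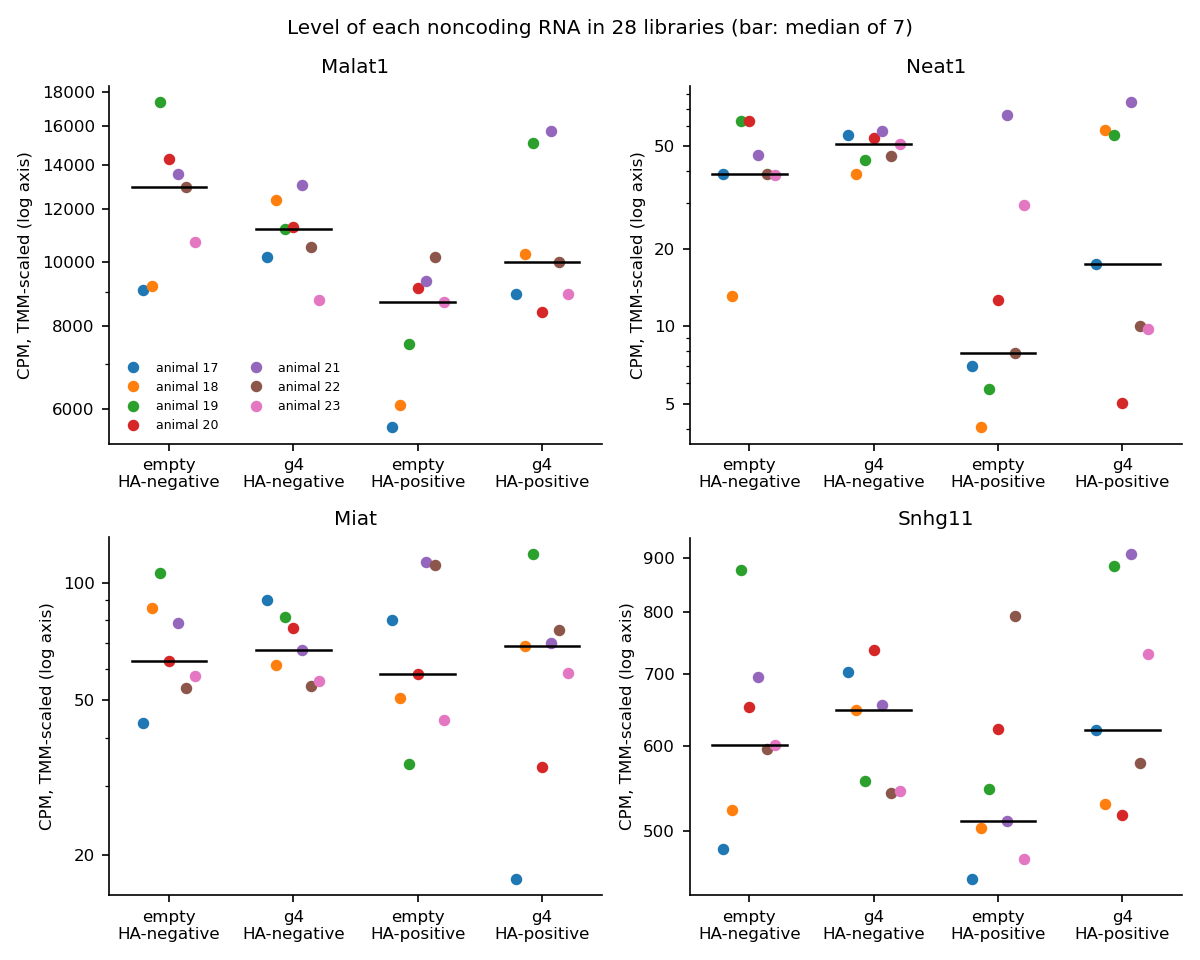
Level of each RNA in the 28 libraries, as TMM-scaled CPM on log axes, by group on the horizontal axis. Points are libraries coloured by animal and bars are medians of 7; the 7 empty HA-positive libraries lie low for Malat1 (5626 to 10180 CPM), and Neat1 spreads from 4.05 to 74.2 CPM in HA-positive nuclei.

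Malat1 was lower in HA-positive than in HA-negative nuclei where the vector was empty. In empty HA-negative libraries it ran from 9058 CPM over a median of 12957 to 17396.5, and in empty HA-positive libraries from 5626 over 8698 to 10180. The groups overlapped, with 4 of 7 HA-positive libraries below all HA-negative ones, but within animals the HA-positive library was the lower in 7 of 7, by 0.30 (animal 23) to 1.21 (animal 19) on the log2 scale. The fold change from edgeR's quasi-likelihood test was −0.63 ± 0.15 (log2, SE), with an adjusted p of 0.00675. Each SE of an edgeR value was derived from the test, as the size of the fold change over the square root of the F statistic. A gene is called here at an adjusted p under 0.05 over all genes tested. Malat1 was the 1 member of 4 called in this comparison, in which 6.99% of 5538 tested genes were called. The call was lost without animal 19 (−0.51, edgeR adjusted p = 0.0505) and without the filter on low counts (−0.68, edgeR adjusted p = 0.0536). With the animal as a block the value was −0.62 (edgeR adjusted p = 0.00148).

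Cell markers moved in the same comparison. The oligodendrocyte list summed to 1043 to 1751 CPM in empty HA-negative and 52.0 to 124 in empty HA-positive libraries, with 6 of 6 tested markers falling, and 5 of 5 tested microglia markers fell, with Cx3cr1 and P2ry12 at 0 counts in the empty HA-positive group. Of 7 tested inhibitory markers 6 rose, with Sst at 2.21 ± 0.20 and Gad1 at 1.82 ± 0.18 (log2, SE). Excitatory markers were lower in 8 of 9 tested, and 1, Foxp2, fell. Of 4 tested astrocyte markers Slc1a2 fell, at −0.69 ± 0.14. Their part in the Malat1 result was not tested, and in sorted nuclei measured in bulk, fewer nuclei of a type and less RNA per nucleus cannot be told apart.

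With g4, no difference in Malat1 between the fractions passed the test. The g4 HA-negative libraries held 8763 to 13053 CPM with a median of 11216, and the g4 HA-positive ones 8390 to 15768 with a median of 9977. The ranges overlapped, with 2 HA-positive libraries (19 and 21) above all HA-negative ones and 1 (20) below them all, and HA-positive was the higher in 3 of 7 animals. The fold change was 0.00 ± 0.15 (log2, SE; edgeR adjusted p = 0.996), and −0.09 with the HA-positive library of animal 19 left out. No member was called, against 6.4% of 6264 tested genes. In this contrast 7 of 7 tested inhibitory markers rose, and 5 of 7 oligodendrocyte, 3 of 5 microglia and 0 of 4 astrocyte markers fell; with the library of animal 19 left out, 8 oligodendrocyte and 5 microglia markers fell.

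Between the vectors, Malat1 in HA-positive nuclei was higher with g4 in 5 of 7 animals, and 3 g4 libraries (18, 19 and 21) lay above all empty ones. The edgeR fold change of 0.45 ± 0.16 (log2, SE) had an unadjusted p of 0.00852 and an adjusted p of 0.672, and it was 0.36 without the library of animal 19 (adjusted p = 0.762). In the same contrast 4 of 4 tested astrocyte markers were higher with g4 (median 0.63) and 7 of 8 excitatory ones (median 0.43), none of them called, and the astrocyte sum was 835 ± 282 CPM with empty and 1300 ± 419 with g4 (SD, n = 7). Inhibitory markers were lower in 6 of 8 tested (median −0.20) and oligodendrocyte markers higher in 2 of 2 (median 1.84), none called. The latter median was 0.76 without the library of animal 19. Over all tested genes 49.2% were higher, at a median of −0.01. The part of these markers in the Malat1 value was not tested. In HA-negative nuclei the value was −0.18 ± 0.15 and g4 was the lower in 5 of 7 animals (edgeR adjusted p = 0.998). The difference between these effects, 0.62 ± 0.24, was tested in 1 model over 28 libraries and did not pass (edgeR unadjusted p = 0.0154, adjusted p = 0.944; 0.53 with library 19 left out), so the fall seen with empty and not with g4 is not shown to differ between the vectors. Of all genes 0.0599% of 5011 were called between vectors in HA-positive nuclei, 0% of 6262 in HA-negative nuclei and 0% of 7197 for the difference, and none of these calls was a member. In the 2 contrasts without a call by edgeR, 238 and 357 genes had an unadjusted p under 0.05, DESeq2 called 1 and 0, and limma voom called 0 and 0.

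In order of its group means, Malat1 stood at 12448 ± 3016 CPM in empty HA-negative nuclei (SD, n = 7), 11059 ± 3070 in g4 HA-positive, 11053 ± 1421 in g4 HA-negative and 8080 ± 1723 in empty HA-positive nuclei. The first 3 levels differed from their neighbours by less than the SD of either group, and the step down to the last, 2973 CPM, exceeded both SDs although the ranges overlapped.

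**Figure D2:**
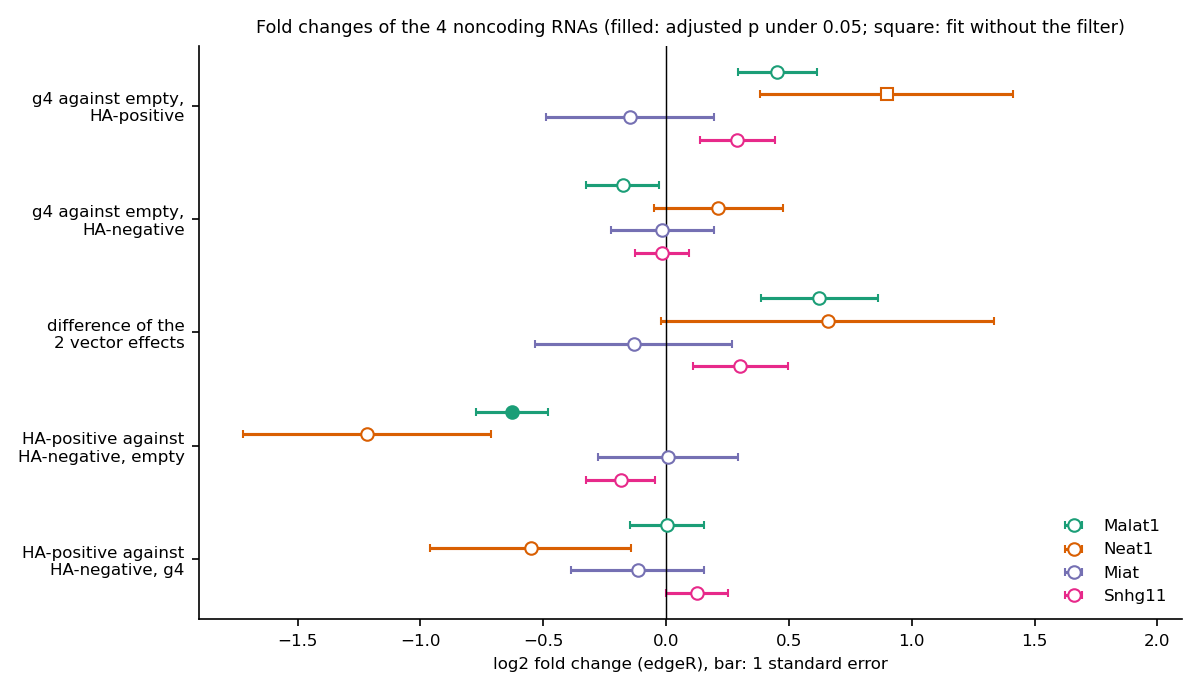
Log2 fold changes of the 4 RNAs (horizontal axis) in the 5 comparisons (vertical axis), with bars of 1 standard error. The 1 filled point is Malat1 between fractions with the empty vector (−0.63), and the square marks Neat1 from the fit without the filter on low counts.

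Neat1 was the scarcest member and the one that varied most between libraries. In empty HA-negative nuclei it ran from 13.1 CPM over 39.1 to 62.9, and in empty HA-positive nuclei from 4.05 over 7.91 to 66.2. Of 7 HA-positive libraries 5 lay below all HA-negative ones, while the HA-positive library of animal 21 lay above them all. The HA-positive library was the lower in 6 of 7 animals. The fold change of −1.22 ± 0.50 (log2, SE) did not pass (edgeR adjusted p = 0.162). Animal 21 decided this: without its libraries the value was −1.98 and passed (edgeR adjusted p = 0.0125), as did −1.84 without the HA-positive libraries under 10000 genes, which include it (edgeR adjusted p = 0.0111). With the animal as a block it was −1.55 (edgeR adjusted p = 0.0732).

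With g4, Neat1 in HA-negative nuclei kept to a narrow range of 38.9 to 57.5 CPM, with a median of 51.1. In g4 HA-positive nuclei it spread from 5.06 over 17.4 to 74.2. Of 7 HA-positive libraries 4 (17, 20, 22 and 23) lay below every HA-negative one and 2 (18 and 21) above them, and the coefficient of variation was 87.1% against 13.7%. The fold change was −0.55 ± 0.41 (log2, SE; edgeR adjusted p = 0.549), and −0.74 without the library of animal 19 (adjusted p = 0.363). The same split held with empty, where the coefficient of variation was 119% in HA-positive and 39.5% in HA-negative nuclei. The 9 HA-positive libraries with under 20 CPM of Neat1 rested on 2 to 9 counts each, so counting error enters that spread.

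Neat1 between the vectors had too few counts in HA-positive nuclei to pass the filter, which kept the other 3 members. In the fit without the filter it was 0.90 ± 0.51 (log2, SE), higher with g4 in 5 of 7 animals, and did not pass (edgeR adjusted p = 0.496; 0.69 and adjusted p = 0.653 without the library of animal 19). In HA-negative nuclei the value was 0.21 ± 0.26, and the difference between the vector effects was 0.66 ± 0.68, neither called by edgeR (adjusted p = 0.998 and 0.997). That difference ran from 0.18 without animal 19 to 1.14 without the HA-positive libraries under 10000 genes, and was 0.47 with only the g4 HA-positive library of animal 19 left out. The order of group means was 49.5 ± 6.78 CPM in g4 HA-negative nuclei (SD, n = 7), 43.1 ± 17.0 in empty HA-negative, 32.7 ± 28.5 in g4 HA-positive and 19.0 ± 22.6 in empty HA-positive nuclei. No neighbours in this order differed by more than the larger of their SDs.

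**Figure D3:**
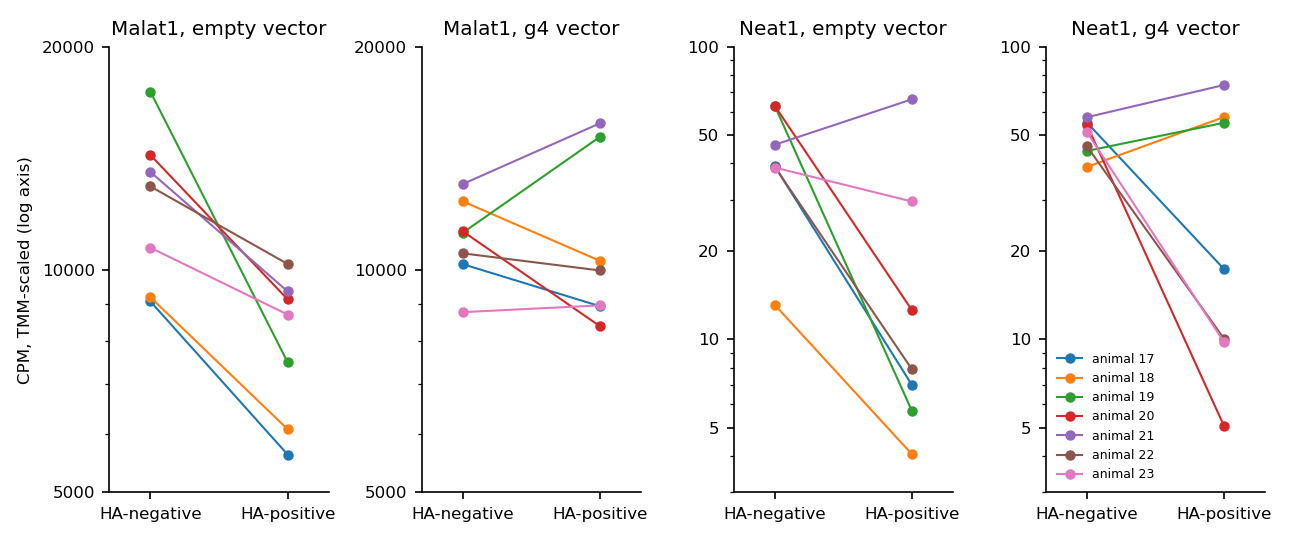
Malat1 and Neat1 in both fractions of each animal, as CPM on log axes, with a line per animal and a panel per RNA and vector. With empty all 7 Malat1 lines fall and 6 of 7 Neat1 lines fall; with g4 3 of 7 lines rise for either RNA.

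Among HA-positive libraries, those with much Neat1 also had more astrocyte marker RNA, a pattern noted after the values were seen. Among empty HA-positive libraries the astrocyte list summed to 1256 CPM in animal 21 and 1219 in animal 23, where Neat1 stood at 66.2 and 29.6 CPM, and to 576 to 773 in the other 5, where Neat1 stood at 4.05 to 12.6. The g4 HA-positive library of animal 21 had the highest values of both, 2157 CPM of astrocyte markers and 74.2 of Neat1. The g4 HA-positive libraries of animals 22 and 23 did not follow this, with astrocyte sums of 1226 and 1332 CPM and Neat1 at 10.1 and 9.79. Nor did empty HA-negative libraries: animals 19 and 20 had the most Neat1 (62.8 and 62.9 CPM) at sums of 1280 and 1221. The highest sum there, 1395 in animal 22, stood beside Neat1 at 38.9. In g4 HA-negative libraries the highest Neat1 (57.5, animal 21) came with a sum of 1508 and the lowest (38.9, animal 18) with 1148. Oligodendrocyte sums stayed at 52.0 to 198 CPM in all HA-positive libraries except the one of animal 19. The part of either cell type in the Neat1 values was not tested.

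**Figure D4:**
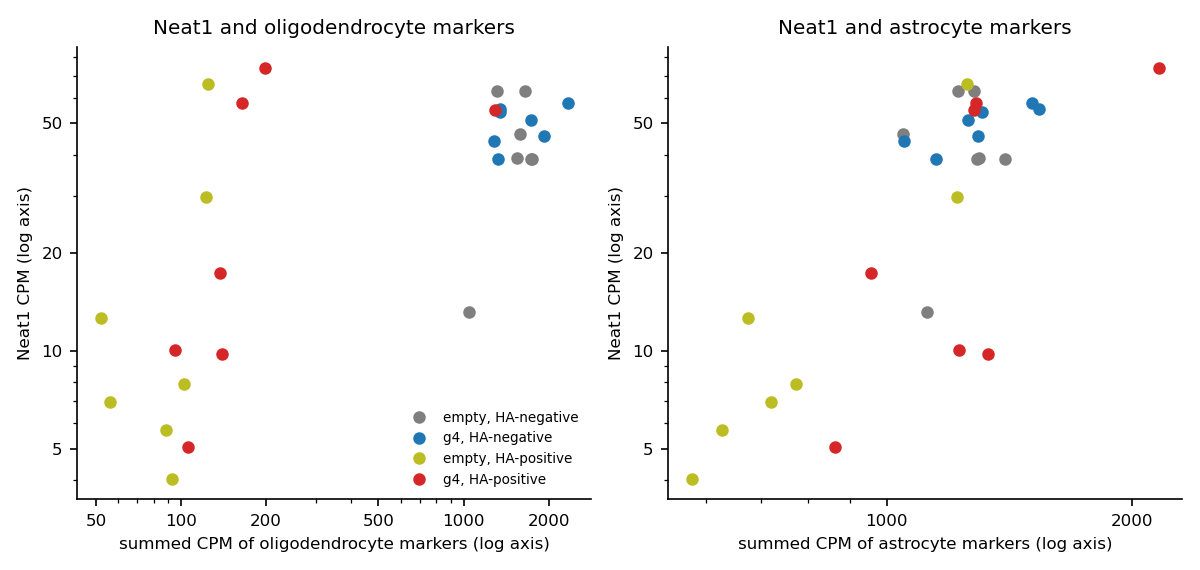
Neat1 (vertical, CPM) against the summed CPM of 8 oligodendrocyte markers (left) and 6 astrocyte markers (right) on log axes, 1 point per library, coloured by group. HA-positive libraries with Neat1 above 50 CPM have astrocyte sums of 1256 to 2157 CPM, and all but 1 of them keep oligodendrocyte sums of 124 to 198.

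Miat did not differ between any of the groups by more than its spread. Its medians were 62.9 CPM in empty HA-negative (range 43.7 to 106), 67.1 in g4 HA-negative (54.3 to 90.1), 58.3 in empty HA-positive (34.2 to 113) and 68.6 in g4 HA-positive nuclei (17.4 to 118.5). The HA-positive ranges enclosed the HA-negative ones, and no group stood apart. The 4 edgeR fold changes between groups lay between −0.15 ± 0.34 (g4 against empty in HA-positive nuclei) and 0.01 ± 0.28 (HA-positive against HA-negative with empty; log2, SE), with adjusted p from 0.882 to 0.998. The library of animal 19 held the highest g4 HA-positive value, 118.5 CPM. Without it the vector value was −0.40 and the value between fractions with g4 −0.38, against −0.11 ± 0.27 with it, and neither passed (edgeR adjusted p = 0.944 and 0.502). The difference between Miat's vector effects was −0.13 (log2), not called by edgeR, and −0.59 with every library of animal 19 left out.

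Snhg11 varied little between libraries, with coefficients of variation of 12.8% to 23.9% within groups. It ran from 481 CPM over 601 to 876 in empty HA-negative nuclei, from 543 over 648 to 738.5 in g4 HA-negative, from 451 over 511 to 795 in empty HA-positive and from 517 over 621 to 908 in g4 HA-positive nuclei. All ranges overlapped, and the highest values belonged to g4 HA-positive libraries 19 and 21, which also had the most Malat1 of that group. With empty it was lower in HA-positive nuclei in 6 of 7 animals, but the fold change of −0.18 ± 0.14 (log2, SE) did not pass (edgeR adjusted p = 0.525). With g4 the same contrast gave 0.13 ± 0.13 (adjusted p = 0.684), and 0.05 with library 19 left out. Between vectors it gave 0.29 ± 0.15 in HA-positive (adjusted p = 0.750) and −0.02 ± 0.11 in HA-negative nuclei (adjusted p = 0.998), and the difference of 0.30 ± 0.19 was not called by edgeR (adjusted p = 0.997). Without library 19 the value in HA-positive nuclei was 0.21 and the difference 0.23.

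Ratios of 2 members within a library do not depend on how libraries are scaled. For 6 pairs and 4 contrasts, 24 exact two-sided permutation tests were run on the log2 ratio of counts with 0.5 added, and 0 passed after adjustment over the 24, while 6 had an unadjusted p under 0.05. These tests do not use the pairing by animal. The smallest p was that of Malat1 to Snhg11 between fractions with empty. Its log2 ratio was 4.29 ± 0.13 in HA-negative and 3.85 ± 0.25 in HA-positive nuclei (SD, n = 7; exact permutation p = 0.00466, adjusted p = 0.112). The ratio of Neat1 to Miat in the same contrast was −0.76 ± 0.87 and −2.29 ± 1.24 (exact permutation p = 0.0274, adjusted p = 0.175). Signs were also flipped within animals, which allows only 128 arrangements. The smallest exact p this test can give is 0.0156, and 1 test alone at that p cannot pass after adjustment over 24. A ratio could pass only if several ratios had such a small p together, so that 0 of 24 passed here does not decide any single ratio. The order changed: the smallest exact p was that of Malat1 to Neat1 between vectors in HA-negative nuclei (0.0156, adjusted p = 0.3125), where the log2 ratio was 8.24 ± 0.53 with empty and 7.78 ± 0.29 with g4 and lower with g4 in 7 of 7 animals. Malat1 to Snhg11 between fractions with empty then had an exact p of 0.03125 (adjusted p = 0.3125). With library 19 left out, 0 of 24 passed.

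Other noncoding RNAs of the nucleus gave a mixed picture. Of 26 further long noncoding RNAs in the table, 15 to 19 were tested in each comparison. Between fractions with empty, 2 of 15 rose and 0 fell, where 6.99% of all tested genes were called, and the median was −0.09 (log2) beside 0.00 over all genes. Oip5os1, a conserved RNA known to bind the microRNA miR-7, rose by 0.62 ± 0.15 (edgeR adjusted p = 0.00698), and Cdr1os, from whose locus the circular RNA Cdr1as is made, rose by 0.60 ± 0.14 (adjusted p = 0.00492). Both moved opposite to Malat1, and Oip5os1 did not pass without animal 19 (adjusted p = 0.0623).

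With g4, 2 of 17 rose between fractions and 0 fell, where 6.4% of all tested genes were called, with a median of 0.09 beside 0.01 over all genes. Mir124-2hg, the host transcript of a miR-124 hairpin, rose by 1.61 ± 0.21 (log2, SE; edgeR adjusted p = 3.11e-06), from 40.6 ± 8.93 to 126 ± 30.5 CPM (SD, n = 7). With empty it went the same way, at 1.07 ± 0.56 (edgeR adjusted p = 0.318), from 36.3 ± 21.1 to 79.7 ± 52.7 CPM. The difference between its vector effects, 0.55 ± 0.61, was not called (edgeR adjusted p = 0.997), so the rise is not shown to be particular to g4. Cdr1os rose between fractions with g4 by 0.48 ± 0.14 (adjusted p = 0.0480) but did not pass under 11 of 18 alternatives, among them RLE size factors (adjusted p = 0.0577), library totals (adjusted p = 0.0505) and the library of animal 19 left out (adjusted p = 0.0837), where Mir124-2hg gave 1.69. Between vectors in HA-positive nuclei 1 of 15 was called: Oip5os1 fell by 0.89 on the log2 scale (SE 0.15, edgeR adjusted p = 0.00382), from 758 ± 214 to 407 ± 56.4 CPM, and did not pass without the HA-positive libraries under 10000 genes (adjusted p = 0.0859). The median of these 15 was 0.20 beside −0.01 over all genes, and 0.11 without library 19. No RNA of the list was called between vectors in HA-negative nuclei (17 tested) or for the difference (19 tested).

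Host genes of snoRNAs like Snhg11 were mostly scarce: 5 or 6 of 17 in the table were tested in a comparison, and edgeR called 0 in any of the 5. Over all tested genes 6.99% were called between fractions with empty, 6.4% with g4 and at most 0.0599% in the other comparisons. A list of 5 or 6 tested genes is too short for 0 calls to be read. With empty all 5 were lower in HA-positive nuclei, at a median of −0.31 (log2) beside 0.00 over all genes. With g4 2 were higher and 4 lower, at a median of −0.06 beside 0.01, and between vectors in HA-positive nuclei 4 of 5 were higher with g4, at a median of 0.35 beside −0.01. The smallest edgeR adjusted p with empty was 0.290.

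The protein partners of these RNAs were measured as mRNA. Of 17 paraspeckle protein genes, 13 were tested between fractions with empty, and 1 of 13 was called, a share near the 6.99% of all tested genes. The gene that fell was Sfpq, which binds Neat1 and is needed for paraspeckles, at −0.87 ± 0.23 (log2, SE; edgeR adjusted p = 0.0139), from 148 ± 19.1 to 81.0 ± 35.3 CPM (SD, n = 7). The call was lost without animal 18 (adjusted p = 0.0504), without animal 19 (adjusted p = 0.0888) and without the HA-positive libraries under 10000 genes (adjusted p = 0.0517). The list's median was −0.16, and in the other 4 comparisons edgeR called 0 of its 13 to 15 tested genes. With the HA-positive library of animal 19 left out, Sfpq fell with g4 too (−0.71, edgeR adjusted p = 0.0112).

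Among 17 genes of nuclear speckle and SR proteins, 14 were lower in HA-positive nuclei with empty (median −0.37) and 14 with g4 (median −0.14), beside 0.00 and 0.01 over all genes. With empty 1 of 17 fell, which is no larger a share than the 6.99% called over all genes. It was Sf3b1, a core splicing factor that gathers in speckles, at −0.60 ± 0.18 (log2, SE; edgeR adjusted p = 0.0341), and it did not pass without animal 19, 21 or 23 (adjusted p = 0.158, 0.113 and 0.0684). With g4 0 were called by edgeR.

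Of 4 splicing factors reported to bind Miat, all tested, 1 was called between fractions with either vector. Over all tested genes 6.99% were called there with empty and 6.4% with g4. A list of 4 is too short for its share to be read. Between vectors in either fraction, and for the difference, edgeR called 0 of 4. Qk, which is abundant in glia, fell in HA-positive nuclei, at −1.59 ± 0.21 with empty (log2, SE; edgeR adjusted p = 3.68e-06) and −1.12 ± 0.24 with g4 (adjusted p = 0.00846; −1.39 with library 19 left out). With empty its level went from 316 ± 50.9 to 106 ± 45.8 CPM (SD, n = 7). Sf1 itself, named after its values were seen, did not pass in either, at 0.14 ± 0.27 and 0.12 ± 0.23. The fall of Qk stands beside the fall of oligodendrocyte and microglia markers in the same fraction, and their part in it was not tested.

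The pattern of each member over the 28 libraries was set against that of 5847 other genes with a mean of at least 20 CPM. Pearson's r was computed on log2(CPM + 1), and the points share library depth and group. Among the genes most like Malat1 were Meg3, a long noncoding RNA of an imprinted cluster (r = 0.843), and Clk1, a kinase of SR proteins (r = 0.783). With group means subtracted they included Meg3 (r = 0.880) and Snhg11 (r = 0.769). Over all genes the median r with Malat1 was 0.03 before and −0.01 after subtraction.

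Among the genes most like Neat1 were Kmt2c, a histone methyltransferase (r = 0.858), and Fam102a (r = 0.775), at 0.811 and 0.721 with group means subtracted. Its r with its neighbour Malat1 was 0.735, and 0.656 with group means subtracted. Snhg11 was most like Malat1 (r = 0.747), Meg3 (r = 0.711) and Mbtps1 (r = 0.685), with Malat1, Snhg14 and Meg3 leading after subtraction (0.769, 0.719 and 0.699). Miat had the weakest likenesses, to Uhrf2, Zfp950 and Guf1 (r = 0.698, 0.634 and 0.621), led after subtraction by Zfp950, Uhrf2 and Rsrp1 (0.696, 0.685 and 0.645). Its r with the other members ran from 0.344 to 0.394. These are the highest values among all genes compared and are given as a description.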

How the data were processed

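RNA of sorted nuclei was counted in 28 libraries. Values are raw counts, per the labels, as the authors deposited them, and all are whole numbers; cells without a value were read as 0. The genome build is GRCm38, per the submitters' processing notes. Which aligner and counter were run, with what strand setting and with or without molecular identifiers, is not given in the sources used here. Samples were tied to columns through their descriptions, since for 3 animals the number in the title is 1 lower than in the column name. Of 41550 entries 1 named no gene, held 0 counts and was left out. The members and the gene lists were chosen with earlier results of these data known.

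Genes were tested on the whole table with the two-sided, robust quasi-likelihood test of edgeR 4.0.16 (R 4.3.3), after TMM scaling and the filterByExpr filter on low counts, with Benjamini-Hochberg adjustment over all genes tested and calls under 0.05. The procedure was tested on simulated data. Group comparisons used their own 14 libraries without a block. The replicate numbers pair the libraries because same-numbered ones come from the same animal, per the titles; deviations from group means correlated by a median of 0.03 to 0.05 within animals, over 5848 genes. CPM use TMM factors over all libraries. Alternatives were DESeq2 1.42.0, limma 3.58.1 (voom), other scalings, no filter, the animal as a block and libraries left out. Named were the 4 members, overlapping genes, up to 4 called genes of each list per comparison by size of change, and for each member the 3 genes of most similar pattern. Of the last, 1 gene is not reported here. Of the marker lists the text gives the largest or leading ones: markers of oligodendrocyte precursors and astrocytes had 1 called gene each between fractions with empty, 2 precursor genes fell with g4, and endothelial markers had 0 genes with enough counts to be tested. Sequences and positions come from GENCODE M21 on GRCm38. No library duplicated another: the highest correlation of a library with any other was 0.950. Precision for Neat1 and Miat is limited by their counts.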

Additional observations from a re-analysis of the deposited data

Results flagged for a closer look

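Each member was examined for a library far from the rest of its group in 16 sets of 7 libraries, of which chance flags about 1 in 20. In empty HA-negative nuclei, Neat1 stood at 13.1 CPM in animal 18, while the other 6 libraries lay between 38.7 and 62.9 CPM. That value rests on 7 counts. The same library also had the lowest oligodendrocyte sum of its group, 1043 CPM. Without animal 18, the Neat1 value of HA-positive against HA-negative nuclei with empty did not pass in edgeR. The reason for the low value was not tested.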

How the results depend on the processing

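Of 343 alternative values for the 20 member results, 309 kept the direction and the side of the threshold and 34 did not. Unless said otherwise, values are log2 fold changes, and the cause of a shift was not tested. Malat1 between fractions with empty stayed negative, at −0.69 to −0.51 with each animal left out, and lost its call without animal 19 (−0.51) and without the filter on low counts (−0.68), where more genes are tested. Neat1 in that contrast ran from −1.98 (without animal 21) to −0.95, and passed at −1.98 and, without the HA-positive libraries under 10000 genes, at −1.84.

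Values near 0 changed sign. Malat1 between fractions with g4 was −0.0035 with RLE size factors, −0.0019 without ribosomal RNA genes, −0.0033 with DESeq2, −0.0016 without the filter, −0.090 with the HA-positive g4 library of animal 19 removed, and −0.089 to 0.066 with animals left out. Miat between fractions with empty was −0.017 with library totals, −0.056 with limma voom, −0.052 without the filter, −0.56 without the HA-positive libraries under 10000 genes, and −0.20 to 0.26 with animals left out. Leaving out those libraries also gave Miat 0.42 between vectors in HA-positive nuclei and 0.43 for the difference of vector effects. With animals left out, Miat ran from −0.51 to 0.047 between vectors in HA-positive nuclei, −0.17 to 0.066 in HA-negative nuclei, −0.59 to 0.22 for the difference and −0.34 to 0.12 between fractions with g4, and Snhg11 between vectors in HA-negative nuclei from −0.10 to 0.10.

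With the animal as a replicate block, signs turned for Malat1 between fractions with g4 (−0.030), Miat between fractions with empty (−0.038) and Miat between vectors in HA-negative nuclei (0.0047). The block changed no call of a member, and left 1 gene called between vectors in HA-positive nuclei.

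Counts of called genes moved most where few were called. Between vectors in HA-positive nuclei the 3 calls became 28 without the filter, 8 with DESeq2, 1 with limma voom, 5 with all libraries in 1 model, 5 without the library of animal 19, 0 without the HA-positive libraries under 10000 genes, and 1 to 4 with animals left out. DESeq2 called 1 in HA-negative nuclei, and 3 were called for the difference without the filter. Between fractions with empty the 387 calls became 661 without the filter, 617 with all libraries in 1 model, and 251 to 372 with animals left out; with g4 the 401 became 547 without the filter, 508 with the HA-positive g4 library of animal 19 removed, and 218 to 423 with animals left out. Depth limits Neat1 and Miat most.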
